A study of Rattus norvegicus with 6 samples.

Results

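The brain angiotensin system was described here through 6 genes: Mas1, Agt, Agtr1a, Agtr1b, Agtr2 and Ace. They were read by 9 probe sets that carry 1 of these symbols and no other, among 20826 such probe sets and 14217 genes on the array. The 6 genes were chosen by name with their SNI minus control differences on these same arrays already known, so these differences are given as a description and no test is applied to them.

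The samples came from the contralateral prelimbic cortex (PL), a medial prefrontal area, of male Sprague Dawley rats aged 6 to 7 weeks when acquired. In the 3 spared nerve injury (SNI) samples a part of the branches of the sciatic nerve had been ligated and cut. In the 3 control samples the same nerves had been exposed and left intact, so both groups had undergone anaesthesia and surgery, and tissue was taken at day 14. The labels number the samples of each group without saying whether each is a separate rat. The p-values below therefore speak only of the scatter among these 6 samples, part of which could be technical.

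Every value below is a log2 expression value relative to the median of its own probe set over the 6 samples, so 0 lies midway between the middle pair of values. The scale shows differences between samples. It shows neither the level of a gene nor whether a probe set exceeded background, and genes cannot be ranked by abundance on it. The tissue is bulk cortex, in which fewer cells of a type and less RNA per cell cannot be told apart.

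Angiotensinogen, encoded by Agt, is a secreted precursor that in brain is made mainly by astrocytes. It is cut to angiotensin I, and angiotensin-converting enzyme (Ace) shortens this to angiotensin II, the ligand of the AT1 receptors (Agtr1a and Agtr1b in rodents) and of the AT2 receptor (Agtr2). Other peptidases make a shorter angiotensin peptide that acts through Mas1, a G protein-coupled receptor often described as opposing the AT1 receptor and known in brain for its expression in the hippocampus and cortex.

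Mas1 was lower in SNI than in control samples. Its single probe set stood at −0.18, −0.28 and −0.18 in SNI 1, 2 and 3, against 0.30, 0.18 and 0.22 in control 1, 2 and 3. The groups did not overlap, and 0.36 log2 units separated the highest SNI sample from the lowest control sample. Mas1 averaged −0.22 ± 0.06 in SNI samples and 0.23 ± 0.06 in control samples (SD, n = 3 each). The difference was −0.45 (SE 0.06), a level 1.37-fold lower in SNI, and 81 of 14217 genes (0.570%) had a larger difference in either direction. Leaving out any 1 sample kept it between −0.48 and −0.42.

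The sequence around the annotated start of Mas1, the gene with the widest gap between groups among the 6, is given from RefSeq (GRCr8), from 250 bases before the start to 50 after it. It lies on the plus strand at chr1:50427840-50428139, holds 54.3% G and C and 3 CpG, and is all in lower case because none of the searched letters (given with the AT1 receptors below) occurred in it.
Mas1: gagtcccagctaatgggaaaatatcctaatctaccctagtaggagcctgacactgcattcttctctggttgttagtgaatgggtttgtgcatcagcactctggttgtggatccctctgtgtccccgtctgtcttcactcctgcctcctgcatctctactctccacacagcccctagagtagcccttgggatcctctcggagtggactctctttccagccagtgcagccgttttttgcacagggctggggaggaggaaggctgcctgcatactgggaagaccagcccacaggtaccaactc

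Agt, the precursor of all angiotensin peptides, was higher in SNI than in control samples but varied far more within groups than Mas1. Its single probe set stood at 0.57, 0.040 and 0.33 in SNI 1, 2 and 3, against −0.33, −0.040 and −0.30 in control 1, 2 and 3. SNI 2 and control 2 lay close to each other and set the distance between the groups, which was 0.081. Agt averaged 0.31 ± 0.26 in SNI samples and −0.22 ± 0.16 in control samples (SD, n = 3 each). The difference was 0.54 (SE 0.14), a level 1.45-fold higher in SNI, and 42 genes (0.295%) had a larger one. The SD of Agt compares with a median gene's SD of 0.059 in SNI and 0.094 in control samples. Leaving out 1 sample at a time moved the difference between 0.41 (without SNI 1) and 0.68 (without SNI 2).

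Of the 6 genes, 1 was higher in SNI with no overlap (Agt) and 1 was lower with no overlap (Mas1). Over all 14217 genes, 6.39% were higher in every SNI sample than in every control sample and 13.7% were lower. By limma on all genes, 3.96% were higher and 9.19% lower at an unadjusted p under 0.05. After Benjamini-Hochberg adjustment 0% (0 genes) passed 0.05, the smallest adjusted p being 0.127, while 1870 genes by limma and 1787 by the methods' t-test had an unadjusted p under 0.05. Since the genes were chosen on this contrast, nothing is read from their count against these shares.

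Ace, the enzyme that forms angiotensin II, differed by −0.07 (SE 0.07) as the mean of its 2 probe sets, with overlapping groups. The mean stood at −0.038, 0.0073 and −0.099 in SNI 1, 2 and 3, against −0.080, 0.15 and −0.0060 in control 1, 2 and 3. It averaged −0.04 ± 0.05 in SNI samples and 0.02 ± 0.12 in control samples (SD, n = 3 each). The probe sets did not share a direction. The difference was −0.15 (SE 0.08) for 1370028_at (probe set 1), which was highest in control 2 (0.23), and 0.02 (SE 0.09) for 1387791_at (probe set 2), which was lowest in control 1 (−0.16).

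Agtr1a, the main AT1 receptor gene of rat brain, differed by −0.09 (SE 0.07) as the mean of 2 probe sets, with overlapping groups. Its mean stood at −0.027, 0.0060 and −0.055 in SNI 1, 2 and 3, against 0.029, 0.19 and −0.019 in control 1, 2 and 3. Control 2 stood above the other 5 samples. Both probe sets were lower on average in SNI, by a difference of −0.10 (SE 0.08) for 1369291_at (probe set 1) and −0.08 (SE 0.06) for 1384240_at (probe set 2). The groups overlapped for the first and were 0.0094 apart for the second, a distance smaller than either group's SD of 0.027 (SNI) and 0.071 (control).

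Agtr1b, the second AT1 receptor gene of rodents, had 1 probe set. It stood at −0.016, 0.058 and −0.26 in SNI 1, 2 and 3, against 0.016, 0.20 and −0.10 in control 1, 2 and 3. The groups overlapped, and in each group sample 2 was the highest and sample 3 the lowest. The difference was −0.11 (SE 0.10), with means of −0.07 ± 0.17 in SNI samples and 0.04 ± 0.15 in control samples (SD, n = 3 each). Agtr1a and Agtr1b encode closely similar proteins, and how far a probe set of either also binds the transcript of the other was not tested.

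The start windows of the AT1 receptor genes are set beside each other because they are the 2 genes of 1 receptor, AT1, in rodents. They were read in the same way as that of Mas1, at chr17:34435383-34435682 for Agtr1a and chr2:104849213-104849512 for Agtr1b, both on the minus strand, and capitals mark the letters searched on both strands. Searched were the TATA box (TATAAA), the core of the CREB site (TGACG, in capitals here as its reverse complement CGTCA), the AP-1 element (TGACTCA), the E-box (CACGTG) and the GC box (GGGCGG). Counted from the start, the Agtr1a window holds TATAAA at −45, CGTCA at −159 and a pair of GGGCGG at −117 and −112 that share 1 base. The Agtr1b window holds none of them.
Agtr1a: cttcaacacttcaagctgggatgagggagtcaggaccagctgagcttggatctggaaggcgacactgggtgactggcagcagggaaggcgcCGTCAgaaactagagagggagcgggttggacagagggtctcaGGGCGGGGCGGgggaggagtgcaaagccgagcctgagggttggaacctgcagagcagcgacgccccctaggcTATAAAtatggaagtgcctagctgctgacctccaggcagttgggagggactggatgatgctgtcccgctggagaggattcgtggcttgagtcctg
Agtr1b: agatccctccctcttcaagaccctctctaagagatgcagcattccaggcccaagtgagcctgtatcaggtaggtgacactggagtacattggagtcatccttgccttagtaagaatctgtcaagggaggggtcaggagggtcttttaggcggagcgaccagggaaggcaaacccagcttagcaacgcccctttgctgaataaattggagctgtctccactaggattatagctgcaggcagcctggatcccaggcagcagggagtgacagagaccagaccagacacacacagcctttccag

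Agtr1a has 60.7% G and C with 11 CpG in this window, against 53.7% with 3 CpG in Agtr1b, beside medians of 51.7% and 7 CpG over 33469 windows of the same length. TATAAA occurred in 14.2% of all windows, TGACG in 21.2%, TGACTCA in 4.63%, CACGTG in 6.42% and GGGCGG in 33.1%. A match is a description of letters and not of a site in use.

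Agtr2, the AT2 receptor gene, differed by 0.01 (SE 0.08) as the mean of 2 probe sets. Its mean stood at −0.017, 0.030 and −0.0064 in SNI 1, 2 and 3, against −0.17, 0.12 and 0.020 in control 1, 2 and 3. The SNI samples lay within the range of the control samples. The SD was 0.02 in SNI samples and 0.15 in control samples, and 13005 genes (91.5%) had a larger difference between groups. The probe sets differed by 0.03 (SE 0.12) for 1369711_at (probe set 1) and −0.0072 (SE 0.07) for 1398288_at (probe set 2).

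**Figure D1:**
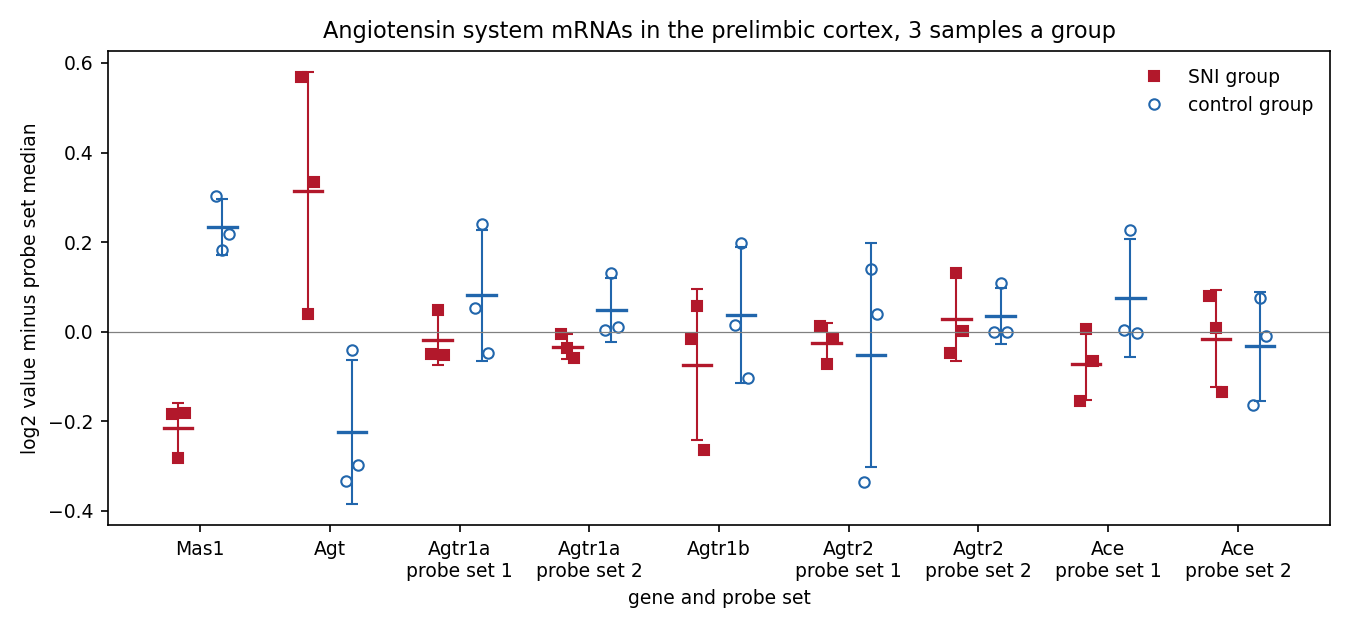
Log2 expression relative to the probe set median (vertical axis) of each of the 9 probe sets in the 3 SNI samples, on the left of each pair, and the 3 control samples, on the right, with the mean and SD of each group. Mas1 shows a gap of 0.36 between groups and Agt a gap of 0.081, while probe set 2 of Agtr1a is apart by 0.0094 and the other 6 probe sets overlap.

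The largest differences among the 6 genes were those of the precursor (Agt, 0.54) and of the Mas1 receptor (−0.45), and the 4 others ran between −0.11 (Agtr1b) and 0.01 (Agtr2). Sample 2 of the control group was the highest of the 6 samples for Agtr1a, Agtr1b, Agtr2 and Ace, 4 of the 6 genes. That sample was also the highest for 25.7% of all genes, and its array median was 0.013 where the other arrays had medians between −0.0054 and −0.00016. Without control 2 the difference was −0.03 for Agtr1a, −0.03 for Agtr1b, 0.08 for Agtr2 and −0.00036 for Ace. Deviations from the group means over the 6 samples, which share these arrays and their scaling, correlated at r = 0.83 for Agtr1a with Agtr1b, 0.86 for Agtr1a with Ace, 0.76 for Agtr1b with Ace and 0.88 for Agtr2 with Ace, and at −0.84 both for Mas1 with Ace and for Mas1 with Agtr2. The same measure was 0.20 between Mas1 and Agt, whose values over the 6 samples ran opposite to each other (r = −0.79) as the gaps between groups set.

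The 18 hybridization control probe sets, which read RNA added to every sample in the laboratory and no rat gene, moved with the groups too. Their mean stood at 0.19, 0.054 and 0.097 in SNI 1, 2 and 3, against −0.047, −0.20 and −0.22 in control 1, 2 and 3. With this mean as a covariate the difference of Mas1 was −0.61 (SE 0.12) and that of Agt 0.35 (SE 0.31), and the part of the hybridization controls in either was not tested further. The groups did not overlap in this mean, so the covariate is confounded with the surgery and widens the SE. A p lost with this covariate does not by itself show a smaller difference.

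The wider pathway was read from 83 listed genes, of which 68 had a probe set of their own. The list was made with earlier results of these data known, so its shares are a description. At an unadjusted p under 0.05 by limma, 4 of the 68 (5.88%) were higher and 7 (10.3%) lower in SNI, beside 3.96% and 9.19% of all genes, and 0 passed an adjusted p of 0.05. The median difference was 0.01, against −0.01 over all genes.

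Of 16 measured peptidases that make or degrade angiotensins, 1 was lower and 0 were higher at that threshold. This was Prep, prolyl endopeptidase, which can cut angiotensins I and II to the shorter peptide that acts on Mas1. It stood at −0.17, −0.15 and −0.092 in SNI 1, 2 and 3, against 0.22, 0.11 and 0.092 in control 1, 2 and 3. The groups did not overlap and the difference was −0.28 (SE 0.06, adjusted p = 0.196 by limma). Prep kept an unadjusted p under 0.05 in all 12 other settings it was tried in. Nln, neurolysin, differed by −0.12, Mcpt1, a chymase, by 0.16 and Anpep, the aminopeptidase that trims angiotensin III, by 0.10, all with overlapping groups.

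Among 9 measured other receptors and receptor partners, 2 were higher and 2 lower. Atp6ap2, an accessory protein of the vacuolar proton pump, differed by −0.26 (SE 0.10, adjusted p = 0.320 by limma). Its groups overlapped because control 2 (−0.010) lay below SNI 2 (−0.0027). Jak2, a kinase that can be recruited by the AT1 receptor, differed by −0.22 (SE 0.08). Arap1, a GTPase-activating protein that the list holds by its symbol and that is not itself a receptor partner, is counted among the higher genes here and in the whole pathway. It was higher by 0.24 (SE 0.06), with values of 0.17, 0.23 and 0.070 in SNI 1, 2 and 3 against −0.099, −0.087 and −0.070 in control 1, 2 and 3. Apln, the apelin precursor, whose receptor is related to the AT1 receptor, was higher by 0.21 (SE 0.07). Its 2 probe sets differed by 0.12 (SE 0.07) and 0.31 (SE 0.10). Atp6ap2 and Jak2 each lost an unadjusted p under 0.05 without SNI 1, SNI 3, control 1 or control 3 and by the methods' t-test, and Apln without SNI 2, SNI 3 or control 3. With the hybridization controls as a covariate Atp6ap2, Jak2, Arap1 and Apln all lost it, with wider SE. The differences were then −0.31 (SE 0.22) for Atp6ap2, −0.37 (SE 0.17) for Jak2, 0.28 (SE 0.14) for Arap1 and 0.22 (SE 0.17) for Apln.

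Among 23 measured G protein, arrestin and effector genes, 2 were higher and 3 lower. Gnaq, the G protein subunit through which the AT1 receptor signals to phospholipase C, differed by −0.21 (SE 0.07). Grk5, a kinase that phosphorylates active receptors, differed by −0.23 (SE 0.08), and Rac1, a small GTPase of NADPH oxidase, by −0.18 (SE 0.05). Dusp1, an immediate early phosphatase of MAP kinases, stood at −0.031, 0.87 and 0.55 in SNI 1, 2 and 3, against −0.58, −0.75 and 0.031 in control 1, 2 and 3. SNI 1 lay below control 3, so its groups overlapped in spite of a difference of 0.89 (SE 0.26, adjusted p = 0.232 by limma). Nos1, neuronal nitric oxide synthase, was higher by 0.20 (SE 0.06). Grk5 lost its unadjusted p under 0.05 without SNI 1, SNI 2, control 2 or control 3 and by the methods' t-test, Gnaq without SNI 1, SNI 3 or control 1, Nos1 without SNI 1, and Dusp1 by the methods' t-test. With the hybridization controls as a covariate Grk5, Gnaq, Rac1 and Nos1 lost it, with Grk5 at −0.013 (SE 0.17) and Nos1 at 0.33 (SE 0.14), while Dusp1 kept it at a difference of 1.81.

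None of the 7 measured kallikrein and kinin genes had an unadjusted p under 0.05, and their differences ran between −0.07 (Xpnpep2) and 0.11 (Klk1), with Cpn1 at 0.07 and Cpm at −0.0011. Of 13 aldosterone, mineralocorticoid and vasopressin genes 1 was lower, Cyp11b1, which makes corticosterone in the adrenal cortex. It stood at −0.55, 0.0085 and −0.20 in SNI 1, 2 and 3, against −0.0085, 0.21 and 0.43 in control 1, 2 and 3, so the groups overlapped. The difference was −0.46 (SE 0.15, adjusted p = 0.285 by limma), and it lost an unadjusted p under 0.05 without SNI 1 or control 3 and by the methods' t-test. With the hybridization controls as a covariate the direction of Cyp11b1 turned, to 0.29 (SE 0.18). Crh, corticotropin-releasing hormone, differed by −0.24 (SE 0.15), Scnn1b, a subunit of the epithelial sodium channel, by 0.14 (SE 0.09) and Sgk1, a kinase induced by mineralocorticoids, by 0.11 (SE 0.08).

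**Figure D2:**
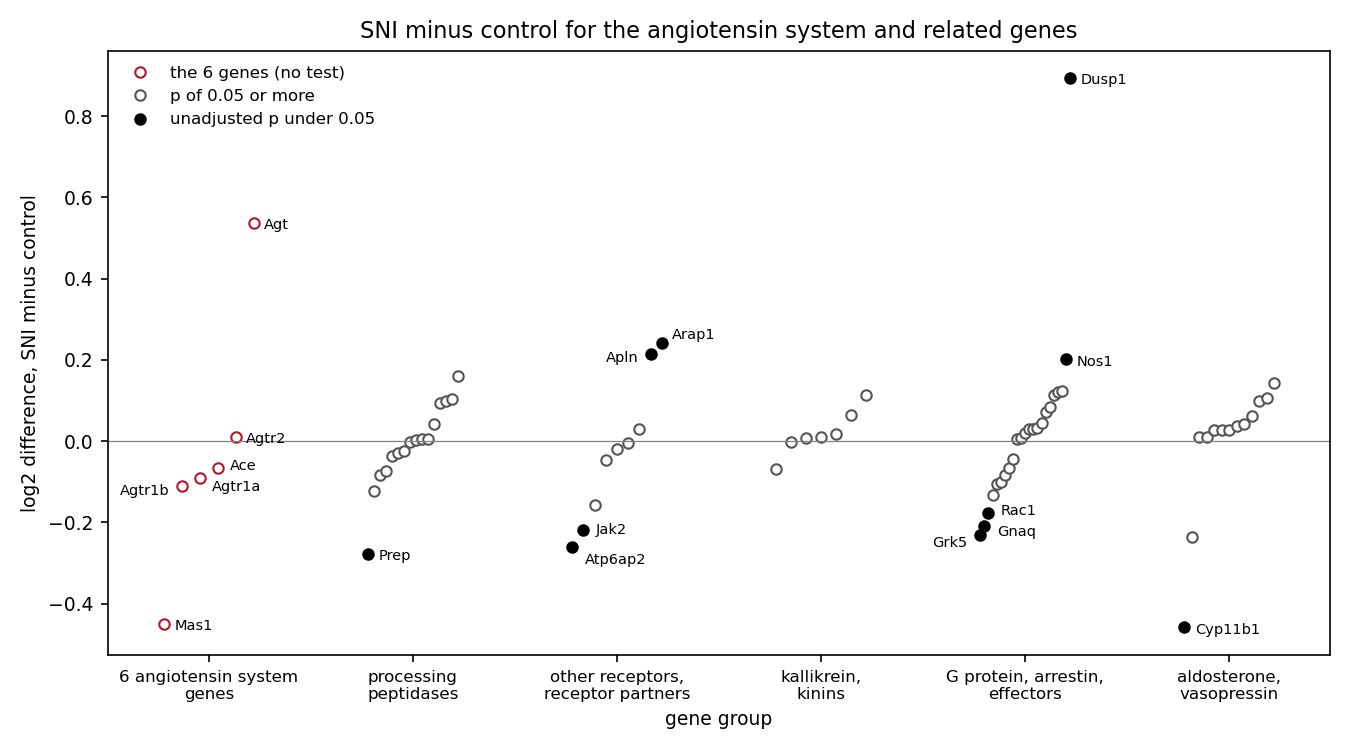
SNI minus control difference on the log2 scale (vertical axis) of the 6 angiotensin system genes (red, no test) and of 68 related genes in 5 groups (horizontal axis), each point 1 gene and filled points those with an unadjusted p under 0.05 by limma. Of the related genes, Dusp1 (0.89) lies farther from 0 than Agt (0.54), and Dusp1 and Cyp11b1 (−0.46) lie farther from 0 than Mas1 (−0.45).

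The genes most like Mas1 over the 6 samples were sought by Pearson's r among all genes. The highest were Hcrtr2 (r = 0.996), Itm2b (0.994), Syn2 (0.993), Gprasp2 (0.991) and Cnot1 (0.991). Hcrtr2, an orexin receptor, stood at −0.17, −0.25 and −0.13 in SNI 1, 2 and 3, against 0.26, 0.13 and 0.15 in control 1, 2 and 3, a difference of −0.36 (SE 0.06). Its r with Mas1 for deviations from the group means was 0.975, from the same values by which it was picked. Syn2, a synaptic vesicle protein, differed by −0.26, and Itm2b, Gprasp2 and Cnot1 by −0.10, −0.08 and −0.16. The lowest r were those of Sdk2 (−0.991), Peli1 (−0.991), Ntn5 (−0.986), Mllt6 (−0.985) and Unc45a (−0.983), each higher in SNI. Sdk2, a synaptic adhesion protein, had a difference of 0.54 (SE 0.07) and the others ran between 0.15 and 0.26.

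With the group means taken out, the genes most like Mas1 were Sez6 (r = 0.998), Atl3 (0.998), Rprd1b (0.997), Glra2 (0.997) and Wasf1 (0.995), whose differences between groups ran from −0.20 (Glra2) to −0.01 (Wasf1). In all, 555 genes had r over 0.9 with Mas1 and 163 had r under −0.9, so the 6 samples, which fall into 2 groups that Mas1 separates, leave many genes with nearly its pattern.

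**Figure D3:**
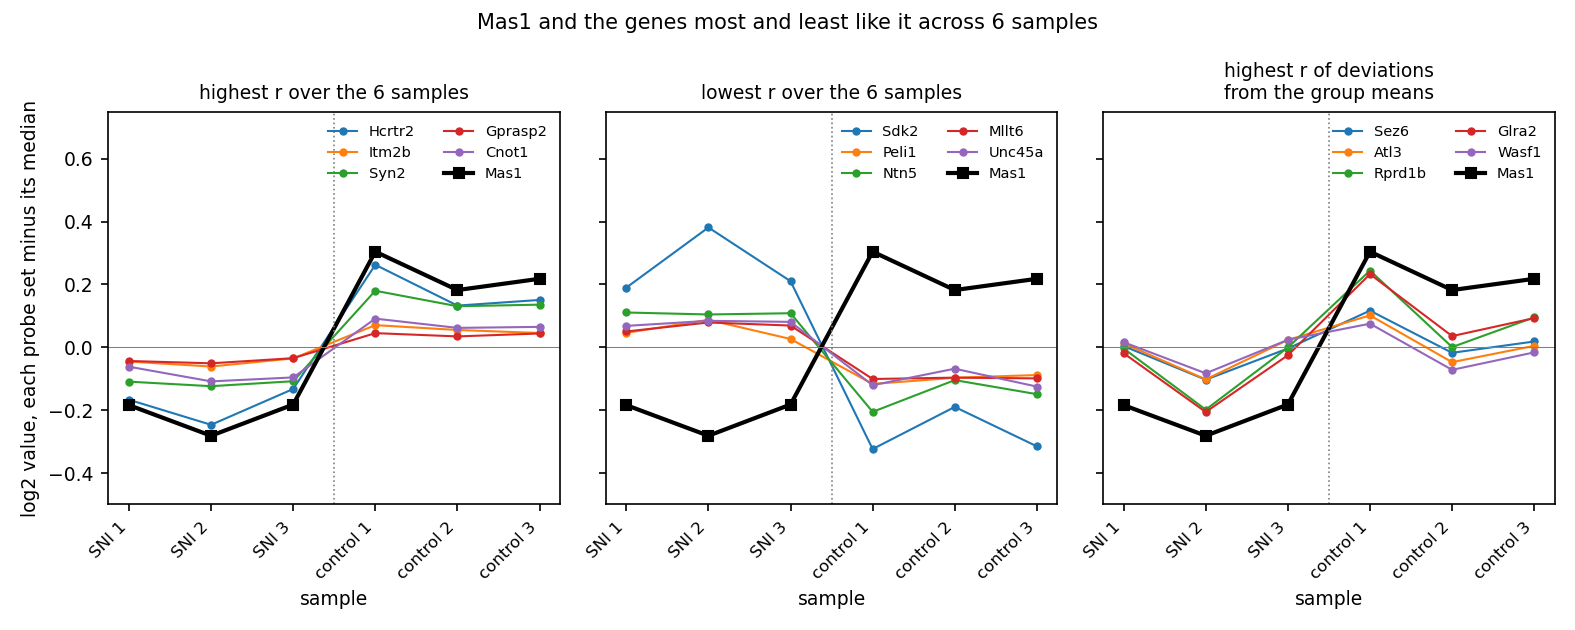
Log2 expression relative to the probe set median (vertical axis) of Mas1 and of the genes nearest to it by Pearson's r over the 6 samples, with the 3 SNI samples left of the 3 control samples on the horizontal axis. Lines join the values of 1 gene. Hcrtr2 was picked by its r over these same 6 samples. Its values lie near those of Mas1, with −0.25 against −0.28 in SNI 2 and 0.26 against 0.30 in control 1.

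The nearest genes with a probe set on either side of Mas1 on chromosome 1 both had overlapping groups. Pnldc1 differed by 0.07 (SE 0.14, adjusted p = 0.875 by limma) and Igf2r by −0.06 (SE 0.06, adjusted p = 0.709).

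Markers of the cell types that could carry these transcripts were read beside Agt and Mas1. These lists were chosen with earlier results of these data known, so nothing is read from their shares against those of all genes. Of 14 microglia markers, 9 were higher and 0 lower in SNI at an unadjusted p under 0.05 (64.3%, against 3.96% higher over all genes), with a median difference of 0.22. The mean of the list stood between 0.045 and 0.16 in SNI samples and between −0.15 and −0.050 in control samples, with C1qa differing by 0.36 (SE 0.07) and C1qb by 0.26 (SE 0.06). As a description over 6 samples that share arrays and scaling, the r of deviations from the group means between Agt and a list mean was 0.95 for microglia, −0.96 for endothelium, −0.78 for neurons and 0.71 for claustrum and hippocampus. For Mas1 it was 0.08 with microglia. The values of Mas1 farthest from 0 were −0.59 for choroid plexus, 0.51 for astrocytes, −0.51 for upper cortical layers and 0.48 for deep cortical layers.

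Of 14 astrocyte markers, the cell type that makes most Agt in brain, 1 was higher (Aldoc, 0.16, SE 0.07) and 0 lower, with a median difference of 0.10. The higher share was 7.14%, beside 3.96% over all genes. Acsbg1 differed by 0.14 (SE 0.06). The list mean stood between 0.018 and 0.030 in SNI samples and between −0.19 and 0.0098 in control samples. No astrocyte marker (0 of 14) had a larger difference than Agt, beside 0.295% of all genes in either direction. Agt was chosen on this contrast, so nothing is read from that count. The r of deviations between the astrocyte mean and Agt was −0.12.

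Of 15 neuron markers, 2 (13.3%) were higher and 3 (20%) lower in SNI at an unadjusted p under 0.05 by limma. Over all genes these shares were 3.96% and 9.19%. In all, 12 neuron markers were below 0 and 3 above, with a median difference of −0.12. Syt1 (−0.38, SE 0.08) and Camk2a (0.29, SE 0.06) had opposite values. The neuron list mean stood between −0.086 and −0.015 in SNI samples and between −0.022 and 0.12 in control samples. Of 12 striatal markers, 3 (25%) were lower and 0 higher, among them Penk (−0.40, SE 0.06) and Tac1 (−0.50, SE 0.09), both precursors of neuropeptides that cortical neurons also express. Whatever their p, 8 striatal markers were below 0 and 4 above, with a median difference of −0.06. That list mean stood between −0.056 and −0.033 in SNI samples and between 0.056 and 0.12 in control samples, and its r of deviations with Mas1 was −0.39. Of 15 endothelial markers, 3 (20%) were higher and 0 lower, among them Cldn5 (0.22, SE 0.07) and Slco1a4 (0.24, SE 0.09). Their list mean stood between −0.014 and 0.095 in SNI samples and between −0.11 and −0.031 in control samples. The part of any cell type in the differences of Agt and Mas1 was not tested. On these centred values a defining marker at 0 cannot be told from one that is abundant and equal in all samples.

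**Figure D4:**
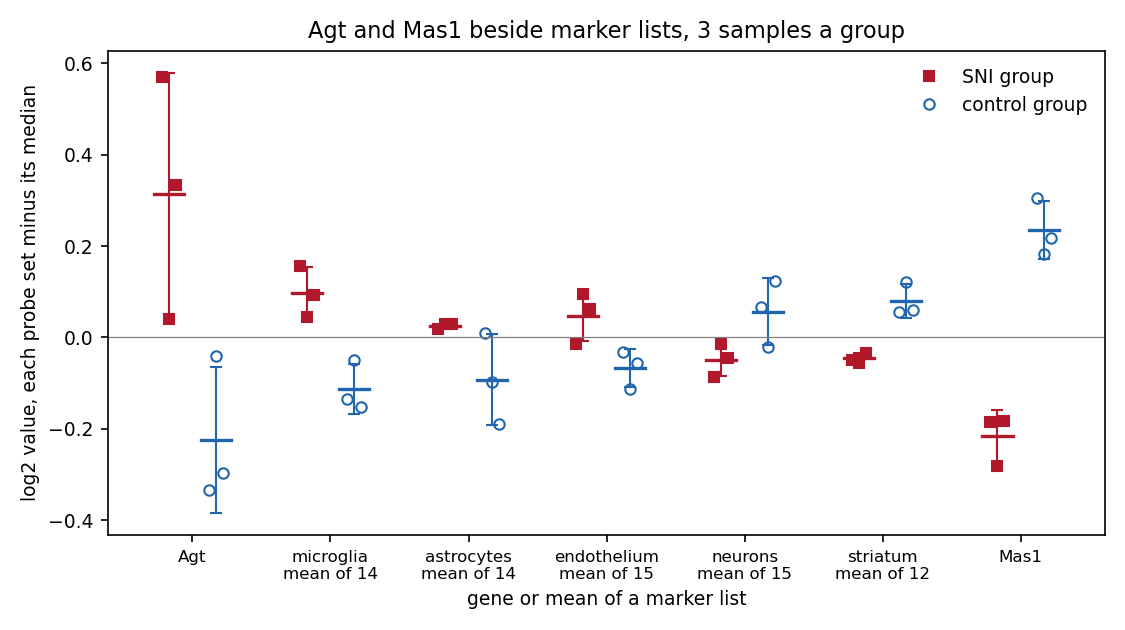
Log2 expression relative to the probe set median (vertical axis) of Agt and Mas1 and the mean of the microglia, astrocyte, endothelium, neuron and striatum marker lists in each of the 3 SNI samples, on the left, and the 3 control samples, on the right, with the mean and SD of each group. The microglia mean runs from 0.045 to 0.16 in SNI and from −0.15 to −0.050 in control samples. Like Agt it is highest in SNI 1 and lowest in SNI 2 among SNI samples. The means of the mural cell, meninges and fibroblast, deep layer, and claustrum and hippocampus lists, not drawn, have that same order. Among control samples Agt is lowest in control 1 and the microglia mean in control 3.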

How the data were processed

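Data of an Affymetrix rat genome array of 6 PL samples were used, 3 SNI and 3 control. The deposited values are log2 expression values that the authors made by robust multi-array averaging with quantile normalization, and each probe set was also centred on its median over the 6 samples (largest absolute row median 4.78e-07), a step not given in the sources used here. Arrays hold no read depth, so the number of samples limits the precision, and no filter on dim probe sets could be set.

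The array has 31099 probe sets, and 57 of them, its controls, did not enter the fit. Of the 31042 others, 20826 had 1 symbol in the platform annotation, 436 several and 9780 none. Probe sets of 1 symbol were averaged to 14217 genes and fitted with limma 3.58.1 (R 4.3.3, lmFit and eBayes, two-sided, no covariate) with Benjamini-Hochberg adjustment over all genes. The fit was tested on simulated data. SE values come from this fit and, for single probe sets, from the same fit on probe sets. An exact permutation test of 3 against 3 cannot go below p = 0.10, so none is given.

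The 6 genes, the pathway lists and the marker lists were chosen with earlier results of these data known. Named were all probe sets of the 6 genes, pathway genes with an unadjusted p under 0.05 and the 2 largest rises and falls of each pathway list, the 5 genes most like and the 5 least like Mas1, the 5 most like it within groups, its neighbours, and of each marker list the 2 genes with the smallest p. Start windows came from RefSeq (GRCr8), which held 5 of the 6 genes. Alternatives were another scaling, single probe sets, the methods' t-test, a robust variance in limma, and a stricter and a looser p threshold. Others were hybridization controls as a covariate, a replicate block and leaving out each sample.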

Additional observations from a re-analysis of the deposited data

Results flagged for a closer look

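The hybridization controls, probe sets outside the comparisons of rat genes, were higher in SNI than in control samples. Their mean over 18 probe sets was 0.11 ± 0.07 in SNI samples and −0.16 ± 0.10 in control samples (SD, n = 3 each), a difference of 0.27 on the log2 scale. They read RNA that is added to each sample and were singled out because they should not follow the surgery. The groups did not overlap, since the lowest SNI sample stood at 0.054 and the highest control sample at −0.047. The part of this difference in the values of Mas1 and Agt was not tested beyond the covariate.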

How the results depend on the processing

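Over the 10 alternatives tried for each, the difference ran between −0.61 and −0.42 for Mas1 and between 0.35 and 0.68 for Agt. The groups of both genes did not overlap, so leaving out a sample could not turn their direction. The replicate block leaves the difference as it was, so it could not turn it either. The direction of Agtr1a and Agtr1b held in all 12 and 10 alternatives, while Agtr2 changed sign in 3 of 12 and Ace in 2 of 12. With hybridization controls as a covariate, Mas1 was −0.61, Agtr2 0.28 and Ace 0.10, the median of the pathway genes was 0.076, 1 of them was lower, and 2 of all genes passed an adjusted p of 0.05. At an unadjusted p under 0.01, 2 pathway genes were higher and 2 lower. Among single probe sets, 10 passed an adjusted p of 0.05. Leaving out 1 sample at a time gave Mas1 −0.48 to −0.42, Agt 0.41 to 0.68, Agtr1a −0.13 to −0.03, Agtr1b −0.18 to −0.016, Agtr2 −0.07 to 0.08 and Ace −0.12 to −0.00036. The same settings gave 3 to 9 higher pathway genes (9 without control 2), 2 to 8 lower ones (2 without SNI 1, 3 without control 3, 4 without SNI 3), a pathway median of −0.017 (without control 1) to 0.035 (without control 2), and 0 to 4 genes at an adjusted p under 0.05 (4 without SNI 1, 1 without each of the control samples). The cause of these shifts was not tested. With the replicate number as a block, 5 pathway genes were higher, 7 lower and 0 genes passed the adjusted threshold, and Mas1 kept −0.45 (SE 0.06). Over all genes, same-numbered samples did not deviate together (correlations of deviations −0.0222, −0.0074 and −0.0454). The labels do not say whether the numbers pair the samples, and these correlations cannot decide it. The 3 samples of each group limit what differences can be read.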

Other observations

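Other cell types that the dissection could hold were read in the same way, by limma at an unadjusted p under 0.05. Over all genes, 3.96% were higher and 9.19% lower at this threshold. Of 13 markers of deep cortical layers 3 (23.1%) were lower in SNI, among them Rprm (−0.37, SE 0.08) and Tle4 (−0.25, SE 0.07), which mark corticothalamic neurons. Of 11 upper layer markers 2 (18.2%) were higher, the transcription factors Lhx2 (0.18, SE 0.06) and Cux2 (0.19, SE 0.06). Whatever their p, differences of deep layer markers ran between −0.37 and 0.45, with 11 below 0 and 2 above. Those of upper layer markers ran between −0.17 and 0.19, with 4 below 0, 7 above and a median of 0.016. The deep layer mean stood between −0.13 and 0.012 in SNI samples and between −0.019 and 0.11 in control samples, and the upper layer mean between 0.021 and 0.051 in SNI samples and between −0.029 and 0.0011 in control samples.

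Of 13 mural cell markers 1 (7.69%) was higher, Cspg4 (0.29, SE 0.08), while Vtn differed by 0.25 (SE 0.16). Of 9 claustrum and hippocampus markers 1 (11.1%) was lower, Synpr (−0.17, SE 0.07), while Wfs1 differed by −0.15 (SE 0.09). The 2 probe sets of Synpr differed by −0.25 and −0.10. None of 10 choroid plexus markers passed that threshold (Kcne2 0.05, Kcnj13 −0.06). None of 14 meningeal and fibroblast markers passed it either (Lum −0.33, Dcn 0.24), though their mean was 0.80 in control 3 and between −0.25 and 0.32 in the other 5 samples.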
